A study of Mus musculus with 7 samples.

Results

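The genes described here are the semaphorins of classes 3 to 7, the plexins and the neuropilins, a family of secreted and membrane-bound guidance cues and their receptors. They were selected by gene symbol alone, which gave 31 of the 24346 genes in the deposited table: 20 semaphorins, 9 plexins and 2 neuropilins. RNA was sequenced from primary neurospheres, free-floating clusters grown from dissociated hippocampal cells, and every library came from the culture of a single mouse. The 4 control libraries (WT_215, WT_116, WT_213 and WT_220) came from littermates of the genotypes Med23 flox/+ or Med23 flox/flox, given without Cre, and are labelled wild type. The 3 Med23 CKO libraries (KO_117, KO_214 and KO_218) came from Nestin-CreER:Med23 flox/flox mice. All mice were C57/BL6, all cultures were prepared at the age of 2 months, and both groups were given tamoxifen by gavage at 200 mg/kg once a day on 5 days. The labels place the tamoxifen at 2 months of age, whereas the paper places it at a younger age for the cultures. The interval between tamoxifen and culture is therefore uncertain. Nestin-CreER acts only in cells that express Nestin or descend from such cells. The cultures were not sorted, so cells of other lineages may keep the gene, which was not measured. The paper states that endothelial cells also have Nestin-driven Cre. The unit is FPKM, sequenced fragments scaled to transcript length and to the mapped fragments of the library, so that levels of different genes can be set side by side.

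Semaphorins bind plexins, single-pass receptors whose cytoplasmic domain switches off small GTPases of the Ras and Rap families and thereby changes the actin cytoskeleton and adhesion. Class 3 semaphorins are secreted and mostly need a neuropilin as the ligand-binding partner of an A-type plexin, whereas those of classes 4 to 6 span the membrane and Sema7a is held by a lipid anchor. In the hippocampus they are best known for steering axons, shaping dendrites and spines, and guiding migrating neurons. They also act on blood vessels, immune cells and oligodendrocytes.

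Med23, the targeted gene, was measured at 11.4, 10.3, 12.9 and 10.1 FPKM in control libraries WT_215, WT_116, WT_213 and WT_220, and at 9.97, 9.27 and 8.12 FPKM in the Med23 CKO libraries KO_117, KO_214 and KO_218. The groups did not overlap, with Med23 CKO the lower, but the transcript remained clearly detectable (log2 difference -0.26, SE 0.18, exact permutation p 0.0571). The value covers the whole gene rather than the deleted part. The 10 neural stem cell markers were above 0 in every library. So were the markers of microglia, endothelial cells, the oligodendrocyte lineage, neurons, astrocytes, and mural cells and fibroblasts. Some values were close to 0, such as Lum at 0.0197 and Tmem119 at 0.0269 FPKM in WT_220. A value above 0 therefore does not show that a cell type was present in a culture. Xist, the RNA of the inactive X chromosome, was at 91.3 FPKM in WT_220 and 111 in KO_218 and at most 0.565 in the other 5 libraries, so that each group had 1 library of this kind. Sequencing depth is unknown, and the number of libraries limits the precision.

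All 31 genes were above 0 in every library. Among semaphorins, the transmembrane class 6 members led: Sema6d, a ligand of plexin A1, averaged 38.5 ± 18.2 FPKM (SD, n = 7) and Sema6a, a ligand of plexins A2 and A4, averaged 20.2 ± 6.94 FPKM. Next came Sema5b at 15.5 ± 13.9, Sema7a at 12.6 ± 8.58, Sema4d at 11.9 ± 7.52 and Sema4c at 11.5 ± 3.33 FPKM. The secreted class 3 was low, with means between 0.721 FPKM for Sema3g and 4.58 FPKM for Sema3a. Sema3g, Sema4a and Sema4f were the 3 genes with a mean under 1 FPKM. Sema6d exceeded Sema6a in 6 of 7 libraries, and no semaphorin exceeded its lower neighbour in the order of means in all 7, so neighbouring ranks did not differ beyond the spread between libraries. Class 6 made up 31.8% to 48.2% of the summed semaphorin FPKM.

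**Figure D1:**
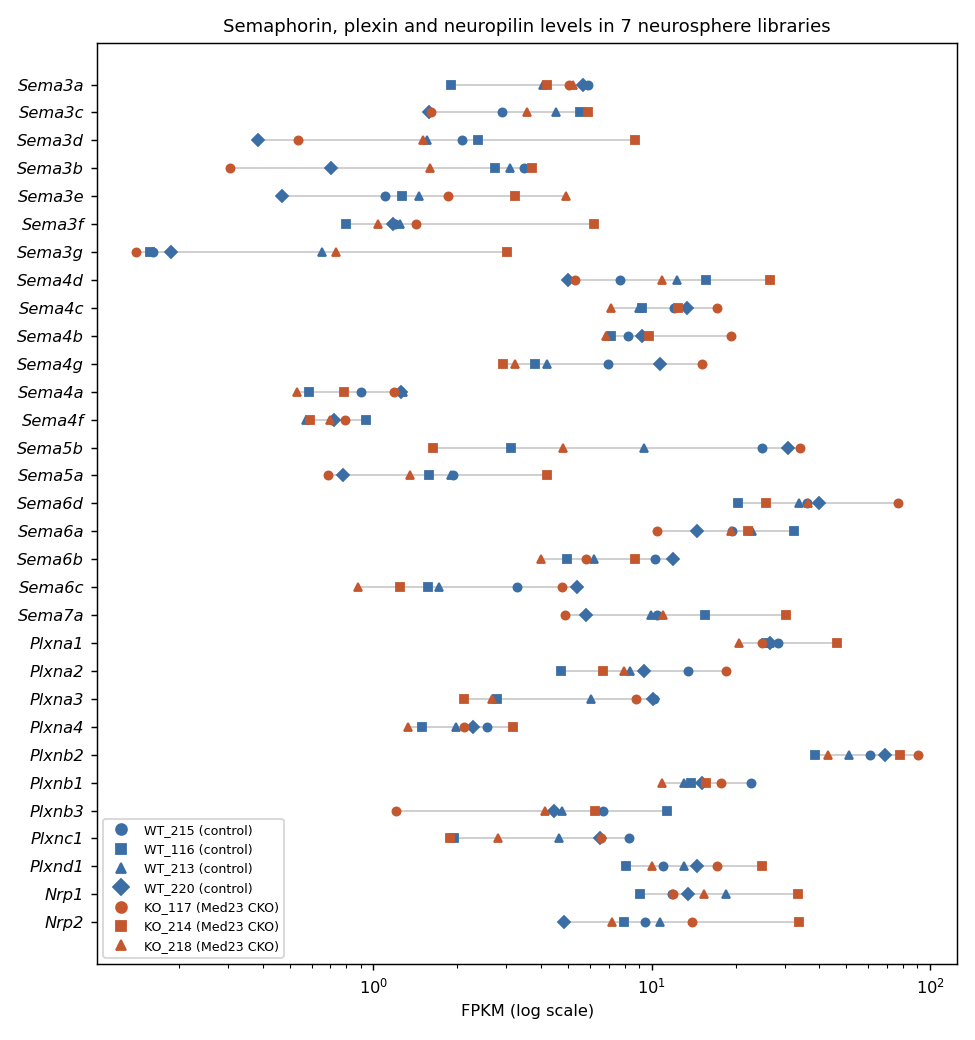
FPKM (log scale) of the 31 genes, one row per gene, with one point for each of the 4 control (blue) and 3 Med23 CKO (orange) libraries and a grey line from the lowest to the highest. Plxnb2 lies furthest right, with 38.6 to 90.7 FPKM, and Sema3g reaches furthest left, down to 0.14 FPKM in KO_117.

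The receptors were led by plexins of type B and A. Plxnb2, a receptor of class 4 semaphorins that is known for its role in neural progenitors, averaged 61.5 ± 18.9 FPKM (SD, n = 7), the highest of all 31 genes. Plxna1 followed at 28.4 ± 8.19 and Plxnb1 at 15.6 ± 3.79 FPKM, and the order Plxnb2 over Plxna1 over Plxnb1 was seen in all 7 libraries. Plxnd1 averaged 14.1 ± 5.65 FPKM and was below Plxnb1 in 5 of 7 libraries. The lowest was Plxna4 at 2.13 ± 0.63 FPKM. Although single plexins varied, the split between types was steady, with 53.1% to 58.8% of the summed plexin FPKM in type B and 29% to 33.3% in type A. The neuropilins, which bind class 3 semaphorins and vascular endothelial growth factors, were both well expressed, Nrp1 at 16.3 ± 8.18 and Nrp2 at 12.6 ± 9.76 FPKM, with Nrp1 above Nrp2 in 5 of 7 libraries.

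To ask whether the family differed with loss of Med23, the groups were compared in limma on log2(FPKM + 1), and a log2 difference below is the Med23 CKO mean minus the control mean on that scale. The scale understates differences of genes with low levels, those of a few FPKM included. Of the 31 genes, 1 (Sema3e) had an unadjusted p under 0.05 and a positive difference, beside 0.502% of the 14151 genes tested, and 0 had a negative one, beside 0.996%. Over all genes tested these were 71 and 141 genes, and 102 and 123 with quantile normalization or 99 and 119 with median centring, so that the split of the background moved with scaling while the counts in the family did not. All Med23 CKO values lay above the control range for 1 gene (Sema3e, beside 0.784% of genes tested) and below it for 0 (beside 1.53%). No gene of the family and none of all genes tested passed after Benjamini-Hochberg adjustment in limma, where the smallest adjusted p was 1. Differences were positive for 18 genes and negative for 13, with a median of 0.10, beside a median of -0.03 over all genes tested. The 95% interval spanned 0 for 30 genes and reached beyond 1 or -1 for 24, so a difference of that size in at least 1 direction lay within the interval for most of the family. Without KO_218, 4 genes were higher at an unadjusted p under 0.05, namely Sema3e, Nrp2, Plxnd1 and Sema4b (log2 difference 0.74, unadjusted limma p 0.048), beside 139 of 14151 genes tested. Without KO_117, Sema3e and Sema3g were higher (beside 354 genes) and Plxna3 was lower (beside 410). Sema3g, with a control mean of 0.29 FPKM, was among the genes tested only through its Med23 CKO values. Without KO_214 the median was -0.12, Sema3e was higher (beside 78 genes) and Plxnb3 was lower (beside 205).

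**Figure D2:**
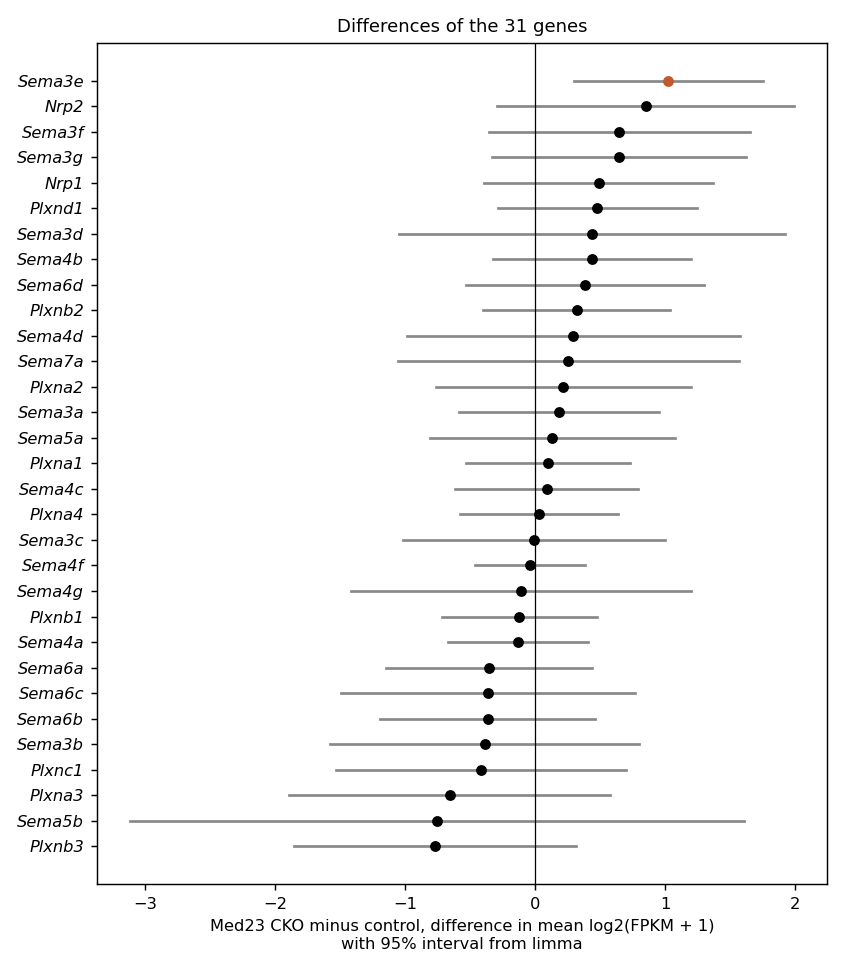
Difference in mean log2(FPKM + 1), Med23 CKO minus control, for each of the 31 genes, with the 95% interval from limma as a grey bar. Sema3e (orange), at 1.03, is the only gene of the 31 whose interval, 0.30 to 1.75, does not cross 0.

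Sema3e was the gene with the largest positive difference of the family on log2(FPKM + 1). It is unusual among secreted semaphorins in that it can bind plexin D1 directly, without a neuropilin. It was at 1.1, 1.27, 1.46 and 0.471 FPKM in WT_215, WT_116, WT_213 and WT_220, and at 1.86, 3.22 and 4.93 FPKM in KO_117, KO_214 and KO_218. Every Med23 CKO library was above every control library. The highest control was WT_213 and the lowest Med23 CKO library was KO_117, so the gap between the groups was narrow beside the range among the Med23 CKO libraries. Group means were 1.08 ± 0.429 FPKM in control (SD, n = 4) and 3.34 ± 1.54 FPKM in Med23 CKO (SD, n = 3). The log2 difference was 1.03 (SE 0.31, 95% interval 0.30 to 1.75), with an unadjusted limma p of 0.0119, a limma adjusted p of 1 and an exact permutation p of 0.0286, which is the smallest that 7 libraries split into 4 and 3 allow. With each library left out in turn it lay between 0.77 and 1.30. It was 1.54 with a pseudocount of 0.1, and the log2 ratio of the group means was 1.63. On that ratio Sema3g was larger, at 2.16, from a control mean of 0.29 FPKM.

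In the annotation of GRCm38 (mm10), Sema3e lies on the forward strand at chr5:14025276-14256689, on the chromosome that also holds Sema3a, Sema3c and Sema3d. The 250 bases before its start in RefSeq (GRCm38.p6, chr5:14025026-14025275, forward strand) are shown because it was the 1 gene of the family past the unadjusted threshold.

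Sema3e upstream sequence, 5′ to 3′: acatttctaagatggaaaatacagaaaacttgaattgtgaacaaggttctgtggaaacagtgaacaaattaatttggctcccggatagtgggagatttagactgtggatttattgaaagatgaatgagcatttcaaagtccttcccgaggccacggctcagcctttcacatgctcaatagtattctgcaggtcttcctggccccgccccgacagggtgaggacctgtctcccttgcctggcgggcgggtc

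Of these bases 48% are G or C, beside a median of 52.4% over all RefSeq promoters. The window with 50 further bases was searched on both strands for CCGGAAGT (an ETS site), GCGTGGGCG (an EGR site) and CAGCTG (an E-box), and none of the 3 letter strings was present; a base of such a string would be in capitals. Over the 37 windows found for 26 of the 31 genes, 0 held the ETS string (3.89% of 32851 promoters), 1 held the EGR string (Plxna2, 0.612% of promoters) and 6 held the E-box string (16.2%, beside 16.3% of promoters).

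The receptors that serve Sema3e were then examined. Plxnd1 (chr6:115954811-115995005, reverse strand), its direct receptor and a regulator of vessel patterning and synapse formation, was at 10.9, 8.1, 13.1 and 14.6 FPKM in the control libraries, in the order given above, and at 17.2, 24.97 and 10.04 FPKM in KO_117, KO_214 and KO_218. Limma gave a log2 difference of 0.48 (SE 0.33), and the groups overlapped because KO_218, the library with the most Sema3e, had less Plxnd1 than 3 of the 4 controls. The difference was 0.81 without KO_218 (unadjusted limma p 0.0316), 0.19 without KO_214 (p 0.569) and 0.010 with array weights, a fit that stopped before convergence. Nrp1, the neuropilin that binds Sema3a, was at 11.9, 9.05, 18.4 and 13.5 FPKM in the control libraries and 11.9, 33.5 and 15.5 FPKM in the Med23 CKO libraries. Only KO_214 lay above the control range (log2 difference 0.49, SE 0.38). Nrp2, which binds Sema3f, was at 9.48, 7.98, 10.7 and 4.84 FPKM in the control libraries and 13.9, 33.7 and 7.19 FPKM in the Med23 CKO libraries. Both KO_117 and KO_214 were above all controls while KO_218 was within them (log2 difference 0.85, SE 0.49), and the difference was 1.34 without KO_218 (unadjusted limma p 0.0203), 0.30 without KO_214 (p 0.45) and 0.016 with array weights. Kdr, the endothelial growth factor receptor that takes part in Sema3e signaling through Nrp1, was at 0.886, 1.55, 3.01 and 0.573 FPKM in the control libraries and 0.533, 3.6 and 1.88 FPKM in the Med23 CKO libraries, with overlapping groups.

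**Figure D3:**
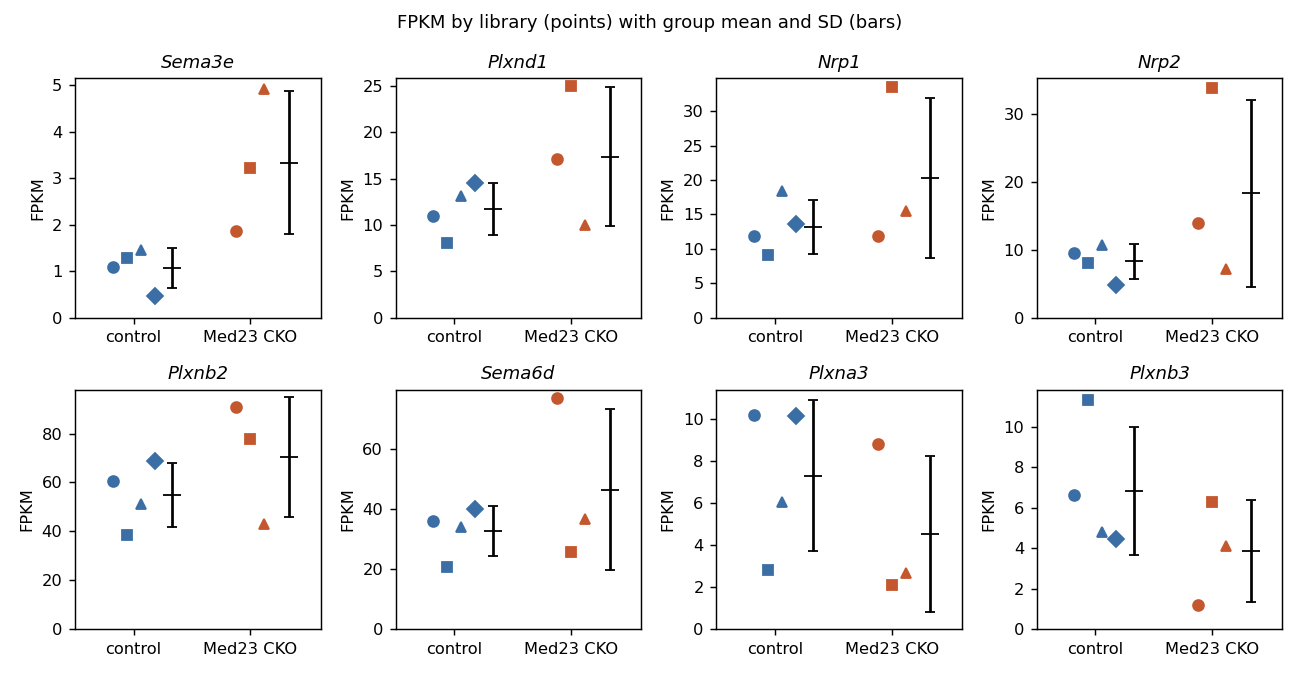
FPKM of 8 genes by library in control (blue) and Med23 CKO (orange), with the group mean and SD as bars; marker shapes separate the libraries. Sema3e has no overlap between groups, whereas the groups overlap in the other 7 panels; Plxna3 and Plxnb3 were added after their values were seen.

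Other class 3 semaphorins varied more between libraries than between groups. Sema3a, the classical repellent of axons, was at 5.93, 1.9, 4.07 and 5.69 FPKM in the control libraries and 5.05, 4.2 and 5.2 FPKM in the Med23 CKO libraries. WT_116 was the low library and the rest lay close together (log2 difference 0.18, SE 0.33). Sema3c, which binds both neuropilins, was at 2.89, 5.54, 4.53 and 1.59 FPKM in the control libraries and 1.61, 5.9 and 3.58 FPKM in the Med23 CKO libraries. WT_220 and KO_117 were the lowest and the group means were nearly equal (log2 difference -0.01, SE 0.43). Sema3d was at 2.09, 2.37, 1.56 and 0.385 FPKM in the control libraries and 0.535, 8.75 and 1.5 FPKM in the Med23 CKO libraries. KO_214 stood far above the rest of both groups (log2 difference 0.44, SE 0.64). Sema3f and Sema3g shared this shape: KO_214 had 6.18 and 3.01 FPKM, whereas the highest of the other 6 libraries had 1.42 and 0.733. The log2 difference of Sema3g was 0.65 with all libraries, 1.05 without KO_117 (unadjusted limma p 0.0253) and 0.14 without KO_214 (p 0.614), and that of Sema3f was 0.65 and 0.083 without KO_214. Sema3g averaged 0.29 FPKM in control and 1.3 FPKM in Med23 CKO libraries. It reached the filter of 0.5 FPKM only through the Med23 CKO group, so its p values carry no weight. Sema3b ranged from 0.305 to 3.71 FPKM and was lowest in KO_117.

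Class 4 semaphorins act mainly on B-type plexins. Sema4d, a ligand of plexin B1 made by immune cells and oligodendrocytes, was at 7.7, 15.7, 12.3 and 5.0 FPKM in the control libraries and 5.29, 26.6 and 10.9 FPKM in the Med23 CKO libraries. The groups overlapped widely, with WT_220 and KO_117 low and KO_214 high (log2 difference 0.29, SE 0.55). Sema4c, a ligand of plexin B2, was at 12.02, 9.25, 9.04 and 13.4 FPKM in the control libraries and 17.1, 12.5 and 7.14 FPKM in the Med23 CKO libraries. Its highest and lowest values both came from Med23 CKO mice, KO_117 and KO_218 (log2 difference 0.09, SE 0.30). Sema4b was at 8.25, 7.15, 7.0 and 9.19 FPKM in the control libraries and 19.3, 9.78 and 6.86 FPKM in the Med23 CKO libraries. KO_117 stood above the other libraries (log2 difference 0.44, SE 0.33), and without it the difference was 0.055. Sema4g ranged from 2.94 to 15.1, Sema4a from 0.531 to 1.28 and Sema4f from 0.574 to 0.945 FPKM, the last being the narrowest range of the 31 genes at 1.65-fold.

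Among classes 5 to 7, Sema6d (chr2:124089969-124667770, forward strand) was at 36.04, 20.5, 33.8 and 39.96 FPKM in the control libraries and 76.7, 25.7 and 36.5 FPKM in the Med23 CKO libraries. KO_117 alone exceeded the controls (log2 difference 0.39, SE 0.39), and without it the difference was -0.04. Sema6a was at 19.4, 32.4, 22.9 and 14.5 FPKM in the control libraries and 10.5, 22.2 and 19.3 FPKM in the Med23 CKO libraries. WT_116 was highest and KO_117 lowest (log2 difference -0.36, SE 0.34). Sema5b was at 24.98, 3.11, 9.37 and 30.9 FPKM in the control libraries and 34.00, 1.63 and 4.82 FPKM in the Med23 CKO libraries. WT_215, WT_220 and KO_117 formed a high set and the other 4 libraries a low one, a 20.8-fold range that crossed the groups (log2 difference -0.75, SE 1.01). Sema5a, Sema6b and Sema6c ranged from 0.688 to 4.19, 4.0 to 11.95 and 0.884 to 5.41 FPKM, and Sema7a, a ligand of plexin C1 and of beta-1 integrin, from 4.88 to 30.3 FPKM with KO_214 highest.

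None of the most abundant plexins passed the unadjusted threshold. Plxnb2 (chr15:89155549-89180788, reverse strand) was at 60.8, 38.6, 51.02 and 68.99 FPKM in the control libraries and 90.7, 77.7 and 43.01 FPKM in the Med23 CKO libraries. KO_117 and KO_214 were above all controls and KO_218 was below 3 of them (log2 difference 0.32, SE 0.31, 95% interval -0.40 to 1.04), and the difference lay between 0.11 and 0.64 with each library left out. Plxna1, the receptor of Sema6d and of neuropilin-bound class 3 ligands, was at 28.3, 25.7, 26.6 and 26.5 FPKM in the control libraries and 24.95, 46.2 and 20.6 FPKM in the Med23 CKO libraries. The controls were tightly grouped, with KO_117 and KO_218 below and KO_214 above them (log2 difference 0.10, SE 0.27). Plxnb1, the receptor of Sema4d, was at 22.7, 13.8, 13.04 and 15.2 FPKM in the control libraries and 17.7, 15.6 and 10.9 FPKM in the Med23 CKO libraries, with overlapping groups (log2 difference -0.12, SE 0.26). Plxna3 and Plxnb3, the 2 genes of the family on the X chromosome, had the most negative differences of the plexins and were chosen for mention after their values were seen. Plxna3 was at 10.2, 2.78, 6.04 and 10.1 FPKM in the control libraries and 8.81, 2.11 and 2.68 FPKM in the Med23 CKO libraries (log2 difference -0.65, SE 0.53; -1.17 without KO_117, unadjusted limma p 0.0421, and -0.34 without KO_214, p 0.581). Plxnb3, a receptor of Sema5a found in oligodendrocytes, was at 6.66, 11.3, 4.78 and 4.46 FPKM in the control libraries and 1.21, 6.27 and 4.13 FPKM in the Med23 CKO libraries (log2 difference -0.77, SE 0.47; -1.14 without KO_214, unadjusted limma p 0.0484, and -0.28 without KO_117, p 0.492). For both genes WT_220 and KO_218, the libraries with Xist, were not set apart from the rest. Plxna2, Plxna4 and Plxnc1 ranged from 4.73 to 18.5, 1.33 to 3.18 and 1.89 to 8.27 FPKM.

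KO_214 was the highest library for 13 of 31 genes (41.9%), beside 25.4% of all genes tested, and these included 5 of 7 class 3 semaphorins and both neuropilins. KO_117 was highest for 7 genes (22.6%, beside 23.6% of all genes tested) and KO_218 was lowest for 8 (25.8%, beside 23.8%), so these counts were close to the share over all genes. A control library also stood apart, as WT_116 was lowest for 7 genes (22.6%, beside 9.71% of all genes tested). These were Nrp1, Plxna2, Plxnb2, Plxnd1, Sema3a, Sema3f and Sema6d. The libraries also differed in markers of other cell types. The summed FPKM of 12 microglial markers was 36.8 to 236 in control and 39.6 to 1073 in Med23 CKO libraries, that of 10 endothelial markers 13.6 to 78.4 and 9.22 to 149, and that of 10 markers of mural cells and fibroblasts 8.89 to 83.9 and 6.69 to 351. In each of these lists KO_214 was the highest library and KO_117 or WT_220 the lowest, and no marker was at 0 in any library. Of the markers tested, 11 of 11 microglial, 10 of 10 endothelial and 9 of 9 mural and fibroblast genes had a positive difference. Over all genes tested it was 6196 of 14151. Of these markers, 0 passed an unadjusted p under 0.05. All but C1qb, Flt1 and Kcnj8 turned negative when 1 library or another was left out, with Tyrobp down to -0.37, Esam to -0.53 and Acta2 to -1.11. Tmem119, Kcnj8 and Lum had control means of 0.25, 0.47 and 0.28 FPKM, and reached the filter of 0.5 FPKM through the Med23 CKO libraries. Summed FPKM of 10 neural stem cell markers was 1926 to 3775 in control and 1801 to 3778 in Med23 CKO libraries, lowest in KO_214. Of their differences 9 of 10 were negative, beside 7955 of 14151 genes tested, and 0 were past the threshold. In the oligodendrocyte lineage 9 of 10 differences were negative, again beside 7955 of 14151 genes tested. Their median was -0.70, beside -0.03 over all genes tested, and 0 were past the threshold. The summed FPKM of its 5 myelin genes was 442 to 4793 in control and 140 to 2949 in Med23 CKO libraries, lowest in KO_117. Astrocyte markers summed to 490 to 717 and 394 to 996 FPKM, highest in KO_214, and 0 of 10 passed the threshold. Neuron and neuroblast markers summed to 50.9 to 104 and 58.2 to 71.9 FPKM, and 1 of 10 passed. This was Gad1, which makes the transmitter GABA, at 11.6, 8.92, 12.2 and 11.1 FPKM in the control libraries and 5.24, 2.21 and 4.42 FPKM in the Med23 CKO libraries, without overlap (log2 difference -1.32, SE 0.27, unadjusted limma p 0.00147, exact permutation p 0.0286). Over all genes tested, 0.996% were lower at this threshold and 1.53% lay below the control range. Gad1 did not pass after Benjamini-Hochberg adjustment. Whether these markers play a part in the differences of the family was not tested, and in bulk RNA fewer cells of a type cannot be told apart from less RNA per cell.

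**Figure D4:**
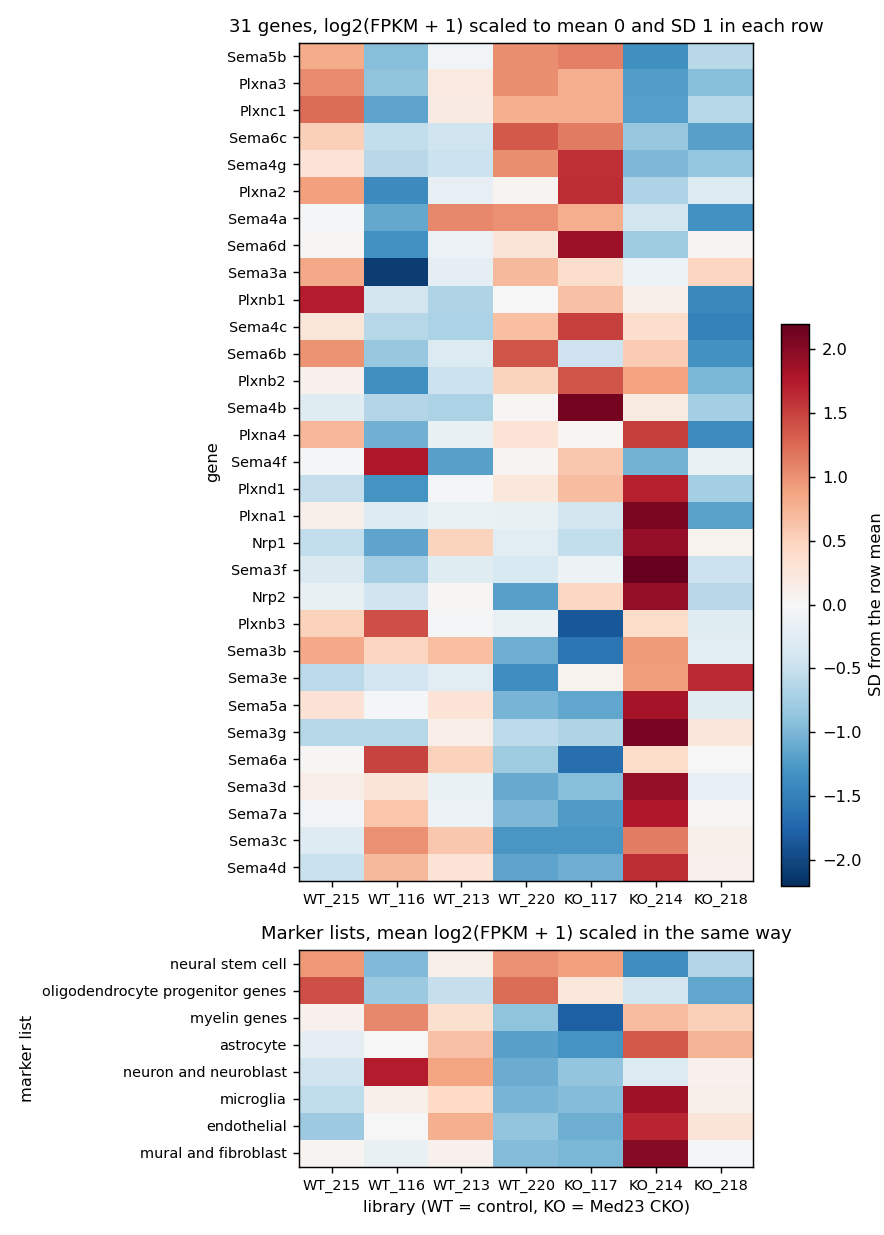
log2(FPKM + 1) of the 31 genes (rows) in the 7 libraries (columns), each row scaled to mean 0 and SD 1, ordered by correlation with the neural stem cell list; the lower panel shows marker lists scaled in the same way. Red cells gather in KO_214 in the lower rows, and WT_215, WT_220 and KO_117 share red cells in the upper rows.

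The family was set against the mean log2(FPKM + 1) of each of 9 marker lists over the 7 libraries, in 279 relations tested by exact permutation. None passed after Benjamini-Hochberg adjustment over the 279, for Pearson's r (smallest adjusted exact p 0.0554) or for Spearman's rho (smallest 0.156), so the following are values only. Sema5b and the neural stem cell list had r = 0.99 and rho = 0.89 (exact p 0.000794 for r and 0.0123 for rho, adjusted 0.0554 and 0.156), and r was 0.98 without KO_214 and WT_116. Plxna3 and the same list had r = 0.99 and rho = 0.93 (exact p 0.00119 and 0.00675, adjusted 0.0554 and 0.156), and r was 0.99 without those libraries. Sema4d and the microglial list had r = 0.96 and rho = 0.89 (exact p 0.00139 and 0.0123, adjusted 0.0554 and 0.156), with r = 0.90 without KO_214 and WT_220. This relation was not particular to microglia. Sema4d also had r = 0.92 with the endothelial, 0.90 with the astrocyte and -0.92 with the neural stem cell list. Sema6a and the myelin genes had r = 0.95 and rho = 0.82 (exact p 0.00159 and 0.0341, adjusted 0.0554 and 0.203), with r = 0.82 without KO_117 and WT_220. These pairs were picked after the values were seen, are all positive and are not simply the largest of the 279. Relations of similar or larger size that are not described include Plxnc1 with the neural stem cell list (r = 0.98). Others are Sema6d with the myelin genes (r = -0.93) and Sema4g with the astrocyte list (r = -0.94). For the mural and fibroblast list and the whole oligodendrocyte list, 1 library was separated from the others by more than 0.5 of the range, a limit also set after the values were seen, and no r is given; the microglial list, at 0.491 of its range, was just inside it.

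**Figure D5:**
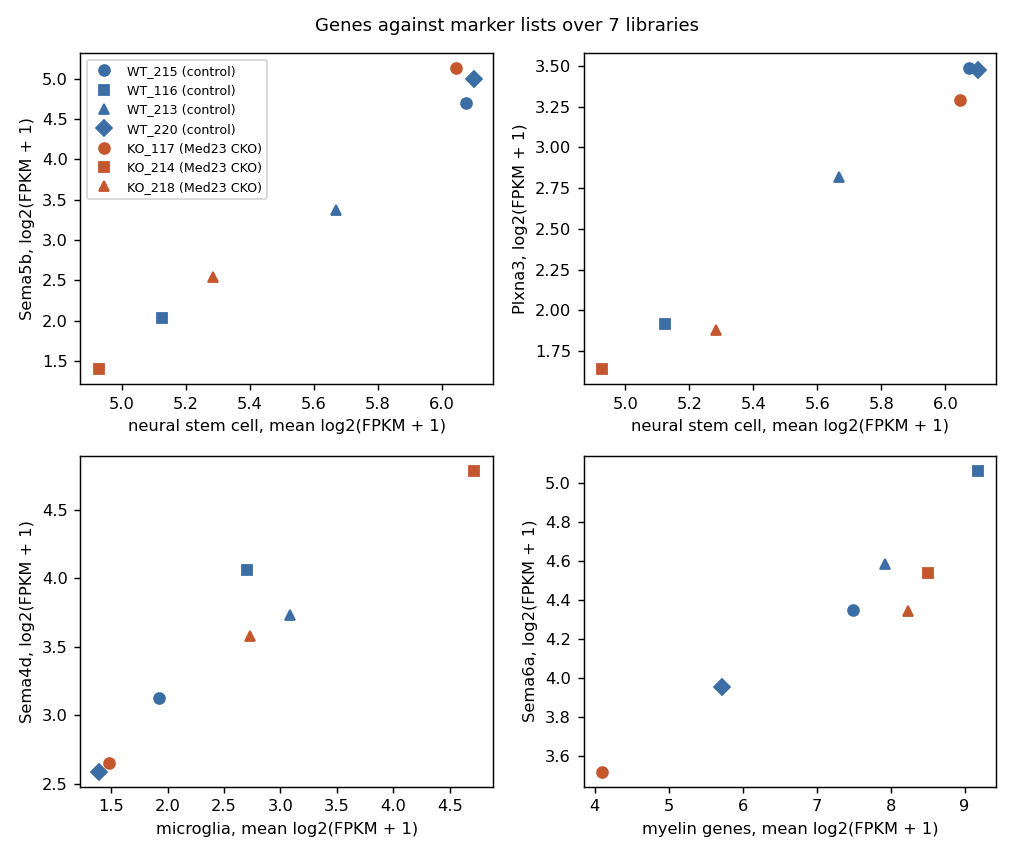
log2(FPKM + 1) of a gene (vertical) against the mean log2(FPKM + 1) of a marker list (horizontal) in 4 panels, one point per library, control in blue and Med23 CKO in orange. Sema5b and Plxna3 increase with the neural stem cell list, Sema4d with the microglial list and Sema6a with the myelin genes, with points of both groups mixed along each trend. Sema4d had an r of similar size with the endothelial and astrocyte lists, which are not plotted.

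Among 23 partner receptors, coreceptors and neuropilin ligands of the family, 22 were found by symbol and 20 had enough signal to be tested. Flt4, with a control mean of 0.41 FPKM, reached the filter only through its Med23 CKO values, and the median below includes it. In limma 2 of the 20 had an unadjusted p under 0.05 with a positive difference and 0 with a negative one (beside 0.502% and 0.996% of all genes tested), and the median log2 difference was 0.42, beside -0.03 over all genes tested. The list shares Trem2 and Tyrobp with the microglial markers and Kdr and Flt1 with the endothelial markers, lists with median differences of 0.86 and 0.52, and all 4 of these genes were highest in KO_214; their part in the median was not tested. The 2 genes past the threshold, Itgb1 and Itga1, encode integrin chains that together form a receptor for Sema7a. Itgb1 was at 162, 129, 173 and 151 FPKM in the control libraries and 222, 219 and 186 FPKM in the Med23 CKO libraries. The groups did not overlap (log2 difference 0.44, SE 0.17, unadjusted limma p 0.0298, exact permutation p 0.0286). The limma p was between 0.0554 and 0.0781 without WT_116, WT_220, KO_117 or KO_214. Itga1 was at 1.89, 1.15, 3.08 and 0.914 FPKM in the control libraries and 2.51, 8.79 and 4.78 FPKM in the Med23 CKO libraries. Only KO_117 fell within the control range (log2 difference 1.14, SE 0.41, unadjusted limma p 0.0254, exact permutation p 0.0857), and the limma p was between 0.0596 and 0.086 without WT_116, WT_220, KO_214 or KO_218. Erbb2, a kinase that associates with B-type plexins, was at 0.525, 0.638, 0.659 and 0.451 FPKM in the control libraries and 0.811, 1.86 and 0.691 FPKM in the Med23 CKO libraries. Its groups did not overlap (exact permutation p 0.0286), but the limma test did not pass (log2 difference 0.40, SE 0.24, unadjusted p 0.136). Med23 CKO values all lay above the control range for 2 of the 20 genes, Itgb1 and Erbb2, beside 0.784% of all genes tested. They all lay below it for 0, beside 1.53%.

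Downstream of the receptors, limma gave an unadjusted p under 0.05 for 2 of 32 intracellular effectors, 1 with a positive and 1 with a negative difference (beside 0.502% and 0.996% of all genes tested), with a median log2 difference of -0.07, beside -0.03 over all genes. Rap1b, a GTPase that plexins switch off, was at 74.6, 89.3, 100.2 and 65.4 FPKM in the control libraries and 98.1, 155 and 111 FPKM in the Med23 CKO libraries. KO_117 lay just below the highest control (log2 difference 0.55, SE 0.23, unadjusted limma p 0.0449), and the p was between 0.0592 and 0.154 without WT_215, WT_116, WT_220, KO_214 or KO_218. Mical2, an enzyme that oxidizes actin, was at 14.7, 9.55, 14.1 and 29.4 FPKM in the control libraries and 4.21, 11.7 and 6.03 FPKM in the Med23 CKO libraries. KO_214 overlapped the controls (log2 difference -1.10, SE 0.43, unadjusted limma p 0.0347), and the p was between 0.0559 and 0.112 without WT_215, WT_213, WT_220, KO_117 or KO_218. The other 30 effectors, among them collapsin response mediator proteins, LIM kinase and cofilin, did not pass.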

How the data were processed

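RNA from neurospheres of single mice was sequenced in 7 libraries, grouped by their labels. The authors used the NEBNext Ultra kit and the Illumina HiSeq platform, checked reads with FastQC, removed adapters with cutadapt, aligned to mm10 with TopHat at default settings and calculated FPKM with Cuffdiff; gene annotation and strand setting are not given in the sources used here. The deposited table holds FPKM per library, group means, and the authors' fold changes, test statistics, p-values and q-values, which were not used.

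Genes whose mean reached 0.5 FPKM (14151, including all 31 described) were tested on log2(FPKM + 1) with limma 3.58.1 in R 4.3.3 (lmFit, eBayes with trend, two-sided) and adjusted by Benjamini-Hochberg over all of them, after a trial on simulated data. Single genes were also tested by exact permutation of the group labels (35 arrangements, smallest p 0.0286), and correlations over all 5040 orders of the libraries. The study gives fewer control mice than there are control libraries, and all were kept. Low FPKM values fell on no steps of whole reads (at most 4.56% of low genes in a bin of 0.05 log2), so depth is unknown. Coordinates are from GENCODE M21.

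The genes and lists were chosen with earlier results of these data known. Values in every library are given for genes of the family and its partners and effectors past an unadjusted p of 0.05 or with groups that did not overlap, for the 3 most abundant genes of class 3, of class 4, of classes 5 to 7 and of the plexins, and for both neuropilins; others were named after their values were seen. The alternatives were a pseudocount of 0.1, no filter, a mean that reached 1 FPKM, quantile normalization, median centring, limma without trend, robust, or with array weights, a covariate for the leading digit of the mouse number, and each library left out. The log2 ratio of group means and the split of the oligodendrocyte list into myelin and progenitor genes were added after seeing the data.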

Additional observations from a re-analysis of the deposited data

Results flagged for a closer look

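In the control group, Sema3f was lowest in WT_116, at 0.795 FPKM, and Sema3g was highest in WT_213, at 0.655 FPKM, each apart from the other 3 control libraries by Dixon's criterion. With 36 genes checked in the control group, about 1 in 20 is flagged by chance, and 2 were. Both genes were low in all 4 control libraries, where Sema3g was between 0.157 and 0.655 FPKM and Sema3f between 0.795 and 1.25 FPKM.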

How the results depend on the processing

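Sema3e was higher at an unadjusted limma p under 0.05 under all 16 alternative fits. With each library left out in turn, 1 to 4 genes of the family were higher and 0 to 1 lower at this threshold, and the median log2 difference lay between -0.12 and 0.24. Direction was kept by 14 of the 31 genes under every alternative and turned under at least 1 for the other 17. The log2 differences of genes that turned when a library was left out ranged over Plxnb1 -0.26 to 0.069, Plxna2 -0.19 to 0.48, Plxna4 -0.18 to 0.24, Sema3a -0.089 to 0.33, Sema3c -0.34 to 0.36, Sema4f -0.082 to 0.020, Sema4g -0.77 to 0.25, Sema5a -0.33 to 0.48, Sema3b -0.84 to 0.087, Sema4c -0.17 to 0.40, Sema6d -0.044 to 0.73, Plxna1 -0.23 to 0.33, Sema3d -0.33 to 1.0, Sema4d -0.26 to 0.80, Sema5b -1.81 to 0.058 and Sema7a -0.38 to 0.83. With array weights, where the fit stopped before convergence, 1 gene was lower (Plxna3, -0.99), and the log2 difference was -0.22 for Plxna1, -0.11 for Plxna2, -0.28 for Plxna4, -0.12 for Plxnb2, -0.30 for Sema4c, 0.0032 for Sema4f and -0.11 for Sema5a. Over all genes tested, 71 genes were higher and 141 lower at the unadjusted threshold, as against 193 and 887 with array weights, 140 and 201 without a filter, 354 and 410 without KO_117, 78 and 205 without KO_214, 139 and 70 without KO_218, 45 and 79 without WT_215, 48 and 202 without WT_116 and 48 and 76 without WT_220. Sema3c turned to 0.020 with quantile normalization, 0.019 with median centring, 0.0025 with the mouse number digit as a covariate and 0.022 as the ratio of group means. Sema4f turned to 0.026 with quantile normalization, and Sema4g to 0.15 as the ratio of group means. The cause of these changes was not tested. On the ratio of group means, which does not compress low values, Sema3e differed by 1.63 and Sema3g, highest in KO_214, by 2.16. With 7 libraries, an unknown depth and low levels of class 3 semaphorins, precision was limited. Where an interval spanned 0, the differences inside it could not be told apart from no difference.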
